A study of Rattus norvegicus with 4 samples.

Results

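Jun, Junb, Jund, Fos, Fosb, Fosl1, Fosl2, Atf3 and Batf encode AP-1 transcription factors and partners of Jun, some of which peripheral nerve injury induces. Their mRNA levels were examined in unmodified S16 cells, an immortalized rat Schwann cell line. The 9 genes were chosen by name, with earlier results of these data known, and all 9 were among the 30708 genes listed in each library. The cells came from 2 populations without any edit or treatment, one at passage 9, the parental line of a set of enhancer-deleted clones, and one at passage 39. Poly(A) RNA of each population was sequenced as 2 libraries that carry technical replicate numbers 1 and 2, which gave 4 libraries from rat cells grown in culture, with no animal, treatment or injury in the design. Values are RPKM, which divides the reads of a gene by its length in kilobases and by the sequencing depth, so that levels of different genes are on a per-length scale. With 1 population per passage, the design allowed no test between passages. The libraries of a population cover technical spread only.

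AP-1 is a dimer of basic leucine zipper proteins. Jun proteins can pair with each other or with Fos proteins, whereas Fos proteins need a Jun partner to bind DNA, and Atf3 and Batf join the network as further partners. In Schwann cells, Jun is low during myelination and rises after nerve injury, when it drives the repair cell state, and it opposes the myelin programme led by Egr2. Fos, Fosb and Junb are immediate early genes that respond to serum and growth factors within minutes, Fosl1 and Fosl2 follow more slowly, Jund is often expressed steadily, and Atf3 is an early marker of injured neurons and Schwann cells.

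The read totals behind the values, recovered from the values themselves, ranged from 34246093 to 41382234. The libraries most alike were not those labelled as technical replicates of a population. Across the 11025 genes whose mean reached 1 RPKM, the SD of the log2(RPKM + 1) differences was 0.339 and 0.334 between the technical replicates of passage 9 and passage 39, but 0.0796 and 0.0823 between libraries of different passages with the same technical replicate number. The values are therefore given for each library, by passage and by number. The methods of the study describe the technical replicates as pooled and run over sequencing lanes. A library batch, a sequencing lane and exchanged labels cannot be told apart in this design. Of 7 Schwann cell markers, 6 reached a mean of 1 RPKM, among them Sox10, S100b, Erbb3 and Ngfr. Macrophage markers summed to between 2.82 and 3.34 RPKM with Ptprc and Itgam at 0, and endothelial markers to between 0.692 and 0.798 RPKM with Cdh5 and Kdr at 0. Of 7 fibroblast markers only Col1a1 and Pdgfra reached 1 RPKM, but the 7 summed to between 3349 and 3883 RPKM. Acta2 alone of 5 muscle markers reached it, with a sum between 445 and 988 RPKM. Nefl and Nefm of 7 neuronal markers did so, with a sum between 99.6 and 148 RPKM. Mitf and Pmel of 6 melanocyte markers did so, with a sum between 11.0 and 11.9 RPKM.

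In S16 cells, the mean of 7 of the 9 genes reached 1 RPKM, Fosb stayed below 1 RPKM and Batf was listed at 0 in the 4 libraries. Jund was the most abundant member, at 76.5 ± 2.25 RPKM (SD, n = 2 populations for this and the following means), and ranked 845 among the 30708 listed genes. It was at 64.9 and 91.2 RPKM in technical replicates 1 and 2 of passage 9, and at 63.6 and 86.1 RPKM in those of passage 39. The second technical replicates were thus above the first at both passages, with no overlap. Jun was at 24.6 ± 0.476 RPKM, and its first libraries (27.2 RPKM for passage 9, 26.7 RPKM for passage 39) were above its second ones (22.7 and 21.9 RPKM), the opposite order. Junb was at 16.4 ± 0.317 RPKM, its first libraries holding 13.5 RPKM (passage 9) and 12.9 RPKM (passage 39) and its second 19.8 and 19.5 RPKM. The libraries of Junb again did not overlap between numbers, whereas each number held nearly one value at both passages.

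Among the Fos genes, Fosl2 was at 22.2 ± 0.0731 RPKM, with the first libraries at 22.6 RPKM (passage 9) and 23.3 RPKM (passage 39) and the second at 21.9 and 21.0 RPKM. Fos was at 21.1 ± 0.270 RPKM, its first libraries giving 21.1 RPKM (passage 9) and 21.6 RPKM (passage 39) and its second 21.4 and 20.2 RPKM. Fosl1 averaged 16.04 ± 0.161 RPKM, from 12.9 RPKM in the first libraries of either passage to 19.4 RPKM (passage 9) and 19.0 RPKM (passage 39) in the second. Fosl1 thus showed the split by replicate number seen for Junb, while the Fos libraries overlapped between numbers and those of Fosl2, lower in the second, differed little. Fosb, which encodes the fourth Fos protein, averaged 0.238 ± 0.0216 RPKM. Its first libraries held 0.191 RPKM (passage 9, 35 reads) and 0.198 RPKM (passage 39, 30 reads), and its second 0.316 RPKM (49 reads) and 0.248 RPKM (45 reads). Atf3, which can act as a repressor or join Jun, was at 19.8 ± 0.268 RPKM, its first libraries giving 19.99 RPKM (passage 9) and 19.3 RPKM (passage 39) and its second 19.997 and 19.9 RPKM. Its 4 libraries showed no split by number. Batf, a partner of Jun best known in lymphocytes, had no reads. For a gene of 1 kb, the 3 reads that a count of 0 allows correspond to between 0.0725 and 0.0876 RPKM, by counting error only.

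**Figure D1:**
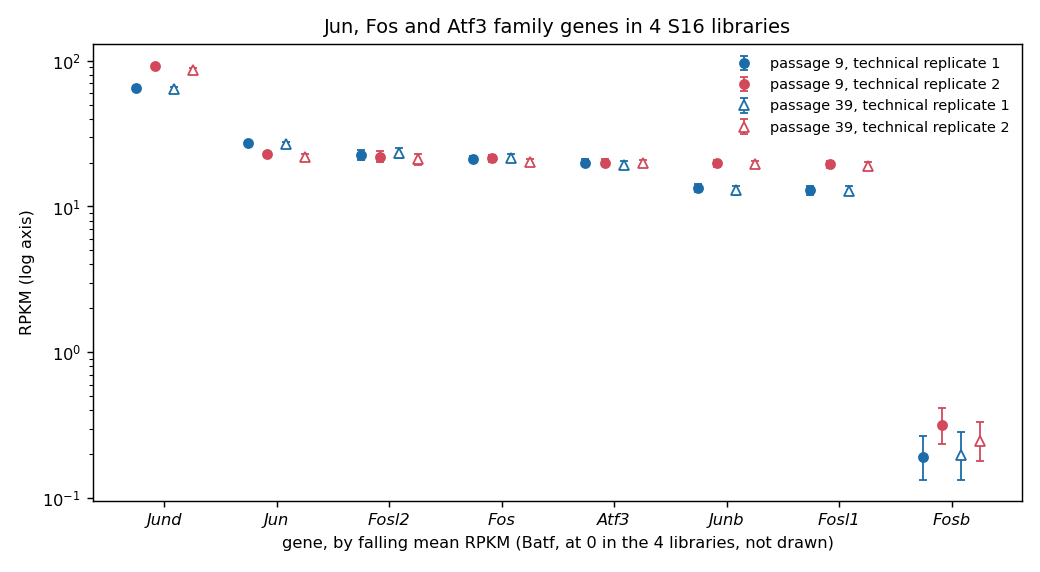
RPKM (log axis) of 8 genes in the 4 libraries, with exact 95% Clopper-Pearson intervals of the recovered reads. Jund lies between 63.6 and 91.2 RPKM, 6 genes lie between 12.9 and 27.2 RPKM, and Fosb lies between 0.191 and 0.316 RPKM. The colours (replicate number) separate Jund, Jun, Junb, Fosl1 and Fosb, and Fosl2 more narrowly. For Fosb and Fosl2 the counting intervals overlap between colours. The symbols (passage) separate only Atf3, by less than its counting intervals.

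By falling mean the order was Jund, Jun, Fosl2, Fos, Atf3, Junb, Fosl1, Fosb and Batf, and each of the 4 libraries kept this order. Neighbours were nonetheless often close. The ranges over the libraries overlapped for Jun and Fosl2, for Fosl2 and Fos, for Atf3 and Junb, and for Junb and Fosl1. They did not overlap for Jund and Jun, or for Fosl1 and Fosb. Fos and Atf3 did not overlap either, at 20.2 to 21.6 and 19.3 to 19.997 RPKM, but the ratio of Fos to Atf3 within a library, 1.06, 1.07, 1.12 and 1.01 in the order passage 9 and then passage 39, had a 95% counting interval above 1 only in the third of these, 1.03 to 1.21. Jund made up 61.5% and 68.2% of the summed RPKM of the Jun genes at passage 9 and 61.7% and 67.5% at passage 39. Fos and Fosl2 made up similar parts of the summed RPKM of the Fos genes, 33.4% to 37.3% and 34.8% to 40.2%, whereas Fosb made up at most 0.501%.

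The first comparison asked whether the AP-1 genes differed between the younger and the older culture. By the passage labels, the 7 expressed genes were nearly level between the passages. Whether labels were exchanged could not be told, so this holds for the labels as given. On the log2(RPKM + 1) scale, passage 39 minus passage 9 was -0.059 for Jund, -0.038 for Jun, -0.037 for Junb, -0.026 for Atf3, -0.025 for Fos, -0.019 for Fosl1 and -0.0064 for Fosl2, with a median of -0.026 against -0.0021 for all 11025 genes. Of the 7 genes, 0 differed 2-fold and 0 differed 1.5-fold, beside 0.00907% and 0.0272% of all genes. Within libraries of the same number, the ratio of passage 39 to passage 9 for Jund was 0.980 (95% counting interval 0.938 to 1.02) in the first and 0.945 (0.910 to 0.980) in the second technical replicates. The second was the only one of the 14 intervals of the 7 genes that did not include 1, and those of Fosl2 are too wide because its reads may be a fraction of the true ones. The Atf3 libraries of passage 39 were both below those of passage 9, with intervals that included 1. By the rule that both intervals lie on the same side of 1, 0 of the 7 genes were called, beside 0.444% of 11024 genes with recovered reads. These intervals compare libraries, cover counting error only and give no replicate check of the passages. With single libraries left out, which mixes the numbers, the difference was between -0.35 and 0.25 for Junb, -0.31 and 0.29 for Fosl1, -0.29 and 0.20 for Jund and -0.18 and 0.092 for Jun.

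The second comparison was between the technical replicate numbers, to which the labels give no condition. Junb, Fosl1 and Jund were higher in the second than in the first libraries at both passages, and Jun was lower. The mean of Junb was 13.2 RPKM in the first and 19.7 RPKM in the second technical replicates, a ratio of 1.49, with 1.47 (95% counting interval 1.35 to 1.60) at passage 9 and 1.52 (1.39 to 1.66) at passage 39. Fosl1, whose protein Fra-1 is induced after the immediate early phase, went from 12.9 to 19.2 RPKM, with ratios of 1.51 (1.38 to 1.65) and 1.48 (1.35 to 1.62). Jund, at 64.3 and 88.7 RPKM, had ratios of 1.40 (1.35 to 1.46) and 1.35 (1.30 to 1.41). Jun, the central factor of the repair state, had means of 26.9 and 22.3 RPKM and ratios of 0.836 (0.793 to 0.880) and 0.821 (0.779 to 0.866). For these 4 genes the SD between the means of the numbers (4.60 RPKM for Junb, 4.49 for Fosl1, 17.2 for Jund and 3.26 for Jun) was larger than that between passages, and the difference kept its direction under both other scalings of the libraries.

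Fos and Atf3 had ratios between numbers whose counting intervals included 1 at both passages. The ratio of Fos was 1.01 (0.934 to 1.09) at passage 9 and 0.934 (0.863 to 1.01) at passage 39, and that of Atf3 was 1.00 (0.929 to 1.08) and 1.03 (0.959 to 1.11). These intervals leave room for second libraries at between 0.863 and 1.11 times the first. Fosl2 was lower in the second library at both passages, by ratios of 0.971 (0.862 to 1.09) and 0.902 (0.801 to 1.02). Its intervals are too wide, since a common factor of its reads and length may be hidden, so whether it differed beyond counting error could not be told. Fosb had ratios of 1.65 (1.05 to 2.62) and 1.25 (0.771 to 2.06), too few reads to tell a direction in both passages. On the log2(RPKM + 1) scale, 0 of the 7 expressed genes differed 2-fold and 0 differed 1.5-fold between numbers, beside 1.09% and 6.02% of all genes. By counting intervals, 3 of 7 genes were higher, beside 41.6% of 11024 genes, and 1 of 7 was lower, beside 21.6%, with Fosl2 among the genes not called. These shares are close to the background, so that a split by number was as common among all genes as among the AP-1 genes. After rescaling of the libraries to a common sum of RPKM, Fos and Fosl2 joined Jun as lower, and the calls over all genes went from 4584 higher and 2376 lower to 2500 higher and 3731 lower.

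**Figure D2:**
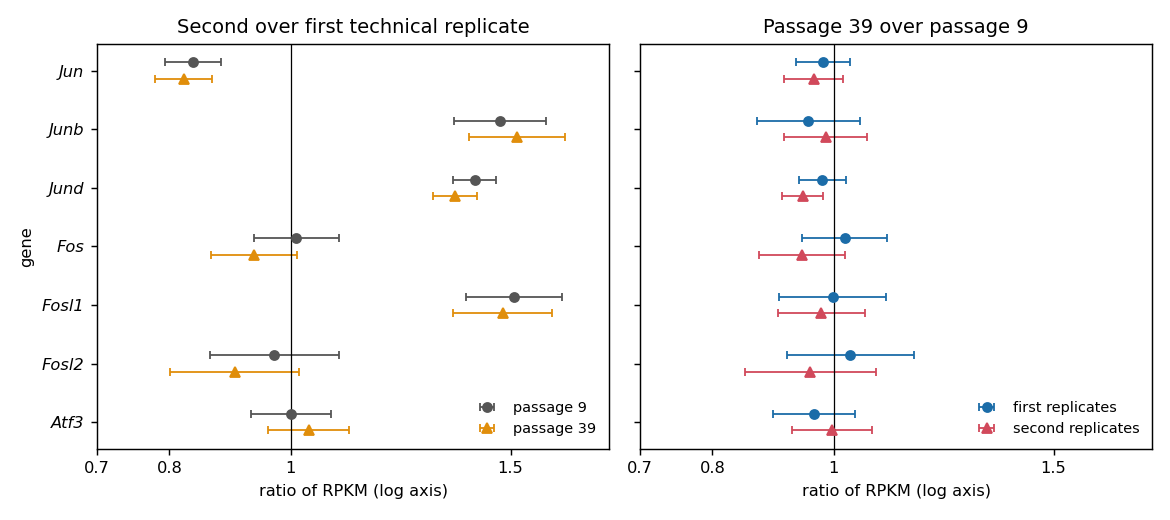
Ratio of RPKM (log axis) of 7 genes between 2 libraries, second over first technical replicate of each passage (left) and passage 39 over passage 9 within each replicate number (right), with exact 95% counting intervals. On the left Junb, Jund and Fosl1 lie between 1.35 and 1.52 and Jun between 0.821 and 0.836, and on the right the ratios lie between 0.944 and 1.03.

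The plot of all genes places these differences among the same 11025 genes, whose median difference between numbers was 0.10 with an SD of 0.33. Junb and Fosl1, both at a log2 difference of 0.54, were above 96.2% of genes, and Jund at 0.46 was above 92.5%. Jun at -0.26 was above 13.3% of genes, Fosl2 at -0.091 above 25.9%, Fos at -0.039 above 31.5% and Atf3 at 0.023 above 38.7%. The median of the 7 genes was 0.023. The difference between numbers fell with gene length (Spearman rho between recovered length and difference -0.42, n = 11024 genes from the same 4 libraries, no independent replicates). Less the median difference of the 500 genes nearest in recovered length, the value was 0.36 for Junb, 0.36 for Fosl1, 0.29 for Jund and -0.37 for Jun. It was -0.26 for Fos, -0.17 for Atf3 and -0.37 for Fosl2, whose recovered length is uncertain. Against genes of similar length, Junb, Fosl1 and Jund thus stayed above, and the other 4 genes lay below. A common sum likewise moved Atf3 from 0.023 to -0.12. Some cell type markers also went with the number. The endothelial sum did not, at 0.798 and 0.692 RPKM (passages 9 and 39) in the first and 0.780 and 0.778 in the second libraries. The melanocyte sums of passage 39 were nearly equal, at 11.70 and 11.68 RPKM. The Schwann cell markers Sox10, S100b, Erbb3 and Ngfr summed to 656 RPKM (passage 9) and 651 RPKM (passage 39) in the first and to 569 and 554 RPKM in the second libraries, and the neuronal markers to 144 and 148 RPKM in the first and 102 and 99.6 RPKM in the second. The sum of the fibroblast markers, of which only Col1a1 and Pdgfra reached 1 RPKM, went from 3349 and 3364 to 3883 and 3778 RPKM. The sum of RPKM over all genes also rose, from 315847 and 315995 to 351061 and 348537, so little of this rise is particular to these markers. The muscle markers, nearly all Acta2, went from 445 and 446 to 988 and 976 RPKM. The part of the cell type markers in the result was not tested.

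**Figure D3:**
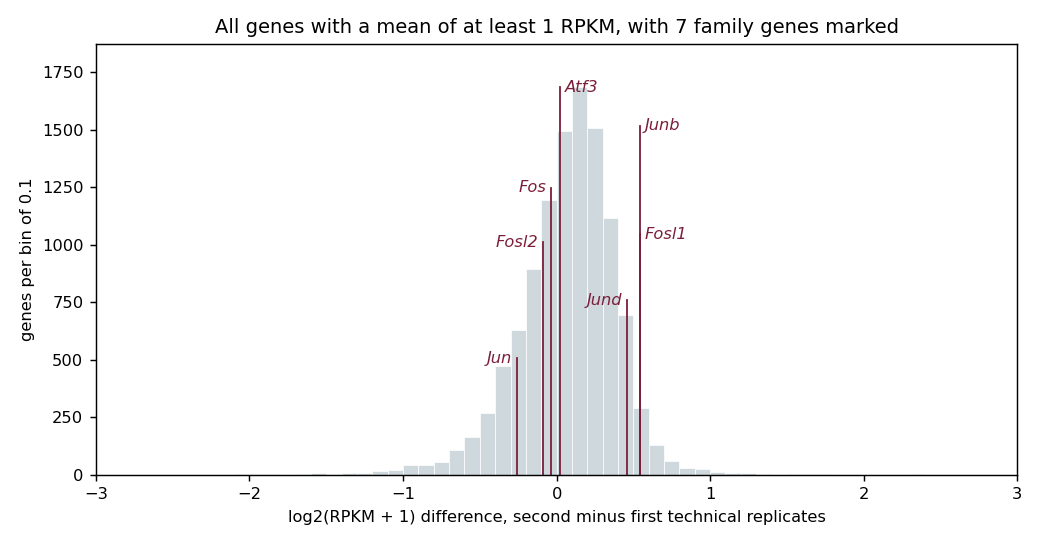
Number of genes per bin of 0.1 of the log2(RPKM + 1) difference between second and first technical replicates, for the 11025 genes whose mean reached 1 RPKM (values beyond the axis are counted in the end bins), with vertical lines at 7 AP-1 genes whose heights carry no value. Jun lies at -0.26 to the left of the median of 0.10, and Jund, Fosl1 and Junb lie at 0.46, 0.54 and 0.54 to its right.

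Ratios between genes of the same library do not depend on its total or scaling. The ratio of Jun to Junb was 2.02 (95% counting interval 1.88 to 2.17) and 1.15 (1.07 to 1.23) in the first and second technical replicates of passage 9, and 2.07 (1.91 to 2.24) and 1.12 (1.05 to 1.20) in those of passage 39. Jun was thus well above Junb in the first libraries and close to it in the second. The ratio of Jund to Jun was 2.39 and 4.01 at passage 9 and 2.39 and 3.93 at passage 39. That of Jund to Junb, which had moved together, was 4.82 and 4.60 at passage 9 and 4.94 and 4.41 at passage 39. Among the Fos genes, the ratio of Fos to Fosl1 was 1.64 and 1.10 at passage 9 and 1.68 and 1.06 at passage 39, and that of Fosl2 to Fosl1 was 1.75 and 1.13, then 1.81 and 1.11. The measured ratios of AP-1 mRNAs thus differed between numbers within both families and, by the labels as given, were alike between passages. The numbers label technical replicates, so this describes the libraries, and whether the cells differed was not tested. Ratios within a library do not cancel the shift with gene length, and the recovered length was 3094 bp for Jun and 1785 bp for Junb.

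**Figure D4:**
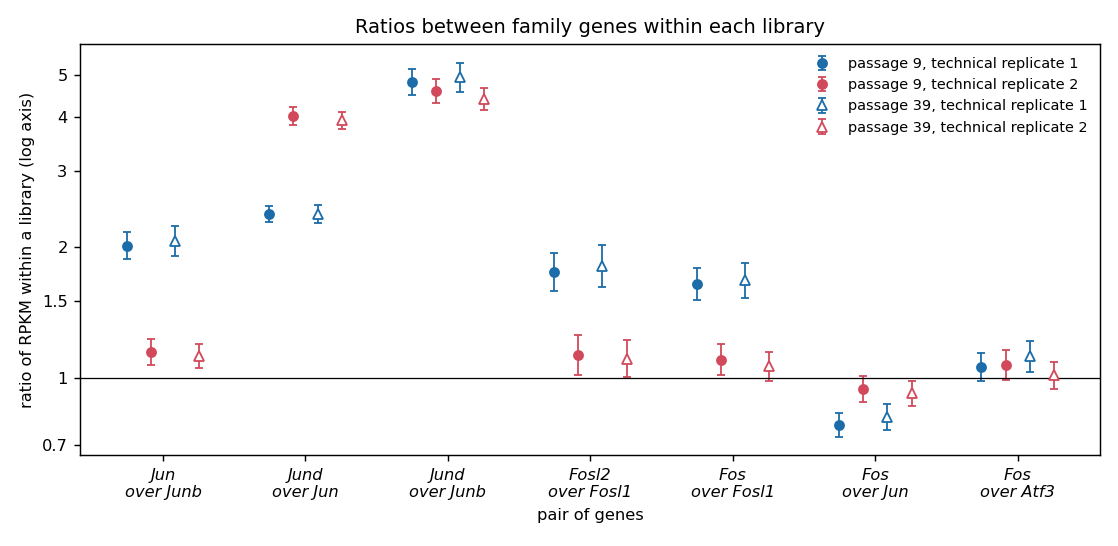
Ratio of RPKM (log axis) between 2 genes of the same library, for 7 pairs in 4 libraries, with exact 95% counting intervals. Jun over Junb lies at 2.02 and 2.07 in the first and at 1.15 and 1.12 in the second technical replicates, and Fos over Atf3 stays between 1.01 and 1.12.

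The promoters of Jund, Junb and Fosl1, the 3 genes that were higher in the second libraries, are shown as the 250 bases before the annotated start, 5′ to 3′ on the strand of the gene, from RefSeq with the GRCr8 build, which is not the build the reads were aligned to. Promoters were matched for 6 of the 9 genes, and not for Jun, Fos and Atf3. Capitals mark matches on either strand to the cyclic AMP response element TGACGTCA, the AP-1 site TGANTCA, the TATA box TATAAA, the CCAAT box CCAAT or the CArG box of serum response genes.
Jund: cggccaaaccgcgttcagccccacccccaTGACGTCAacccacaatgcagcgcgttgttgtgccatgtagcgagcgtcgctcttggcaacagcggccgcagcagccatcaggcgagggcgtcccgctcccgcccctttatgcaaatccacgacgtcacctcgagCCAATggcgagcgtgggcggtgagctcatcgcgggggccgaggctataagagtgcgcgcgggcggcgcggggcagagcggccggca
Junb: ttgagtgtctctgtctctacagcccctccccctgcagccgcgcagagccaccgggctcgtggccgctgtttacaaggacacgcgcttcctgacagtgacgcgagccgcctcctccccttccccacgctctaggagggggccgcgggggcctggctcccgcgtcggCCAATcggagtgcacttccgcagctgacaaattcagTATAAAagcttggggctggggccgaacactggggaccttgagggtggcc
Fosl1: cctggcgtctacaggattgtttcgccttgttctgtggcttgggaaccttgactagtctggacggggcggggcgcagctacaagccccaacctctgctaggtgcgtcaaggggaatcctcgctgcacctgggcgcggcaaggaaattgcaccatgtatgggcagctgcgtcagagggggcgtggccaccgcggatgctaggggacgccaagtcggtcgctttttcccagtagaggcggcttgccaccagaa

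The Jund promoter (chr16:18769772-18770021, minus strand) held the cyclic AMP response element TGACGTCA at 221 to 214 bases before the start and a CCAAT box at 86 to 82 bases. This element, which Jun and ATF dimers can bind, occurred in 1.59% of 33469 promoter windows of the same length. The Junb promoter (chr19:40080876-40081125, plus strand) held a CCAAT box at 85 to 81 and a TATA box at 49 to 44 bases before the start, motifs found in 34.0% and 12.9% of windows. The Fosl1 promoter (chr1:212183635-212183884, plus strand) held none of the 5 motifs. The GC box GGGCGG, not capitalised, occurred 3 times in the Jund, once in the Fosl1 and not in the Junb window, and in 30.5% of all windows. The AP-1 site, present in 6.34% of windows, and the CArG box, present in 1.497%, were in none of the 6 matched windows, which also include Fosb, Fosl2 and Batf. At these shares, 6 windows are too few to read an absence. The GC content was 68.4% for Jund, 66.0% for Junb and 62% for Fosl1, and also 70.4% for Fosl2, which was not called. It was 43.6% for Fosb and 43.2% for Batf, and the median over all windows was 51.2%. A match is a description of the letters in the window only, and no binding was measured.

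Genes around the AP-1 factors were taken from 9 further lists, which were chosen with earlier results of these data known. Between passages, 0 of their expressed genes differed 1.5-fold or more, so that the following values compare second with first technical replicates. The counts stand beside 41.6% higher and 21.6% lower among all genes, or 22.7% and 33.8% after rescaling to a common sum. The difference between numbers fell with gene length, and the counts and medians of these lists were not matched for length. In the kinase cascade that activates Jun, the genes for JNK, p38 and their activators, 14 of 22 genes reached 1 RPKM, with 5 higher and 1 lower by counting intervals and a median log2 difference of 0.064 that became -0.067 after rescaling to a common sum. After rescaling, 2 were higher and 5 lower. The scaffold Mapk8ip1 had means of 23.2 and 23.9 RPKM in the first and second libraries, the kinase Map3k11 23.1 and 22.2 RPKM, and the p38 kinase Mapk14, called higher, 17.1 and 18.9 RPKM. In the ERK cascade and serum response group, 15 of 15 genes were expressed, with 5 higher and 5 lower, or 2 and 9 after rescaling, and both lists are read against the same shares of all genes. Mapk3, which encodes ERK1, was at 133.7 and 138.0 RPKM, the kinase Map2k2 was at 83.8 and 114.1 RPKM, and Mkl2, a cofactor of serum response factor, was lower, at 6.26 and 3.27 RPKM. Among 9 listed ligases and kinases that act on Jun protein, 2 were higher and 2 lower, or 1 and 5 after rescaling. Cbl was lower, at 8.75 and 4.22 RPKM, as was Gsk3b, at 23.0 and 15.6 RPKM, while the ligase Rfwd2 (Cop1) was at 24.3 and 25.6 RPKM and the kinase subunit Csnk2a1 at 48.2 and 50.9 RPKM.

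The other immediate early genes were mostly higher in the second libraries. Of 18 expressed genes, 15 were higher and 2 lower by counting intervals, beside 41.6% and 21.6% of all genes, and the median log2 difference was 0.28 against 0.10 for all genes. After rescaling to a common sum, 10 were higher and 2 lower, beside 22.7% and 33.8% of all genes. Dusp1, a phosphatase of MAP kinases, had means of 5.65 and 10.2 RPKM, Klf2, a zinc finger factor, 12.7 and 22.0 RPKM, and the matricellular genes Ctgf and Cyr61 761.7 and 1091 RPKM and 170.1 and 204.7 RPKM. Ier5 was at 36.4 and 41.3 RPKM. Fos itself, with 21.4 and 20.8 RPKM, did not share this direction.

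ATF4 and stress response genes, which share with Atf3 an induction by amino acid and endoplasmic reticulum stress, were also mostly higher in the second libraries. Of 16 genes, 13 were higher and 1 lower, beside 41.6% and 21.6% of all genes, with a median log2 difference of 0.39. After rescaling 12 were higher and 1 lower, beside 22.7% and 33.8%. Atf4, the factor of this response, went from 277.5 to 373.6 RPKM. Its known target Trib3 went from 3.37 to 11.6 RPKM, Ddit3, which encodes CHOP, from 51.7 to 93.7 RPKM, Chac1, which degrades glutathione, from 14.0 to 25.1 RPKM, and the cystine transporter gene Slc7a11 from 0.739 to 1.92 RPKM. The chaperone Hspa5 and the serine synthesis enzyme Phgdh had ratios of 1.16 and 1.22. Atf3 in the same libraries was at 19.6 and 19.97 RPKM, with neither call. The 23 expressed genes of the other basic leucine zipper partners, which share Atf4 and Ddit3 with this group, had 12 higher and 6 lower, or 9 and 6 after rescaling, among them Atf5, which was higher, from 64.9 to 156.0 RPKM, and Cebpb, from 3.14 to 6.38 RPKM.

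Genes of the repair Schwann cell, several of which Jun is known to induce after injury, were more often called lower than higher. Of 20 genes, 13 were expressed, 4 were higher and 7 were lower in the second libraries, or 3 and 7 after rescaling. Among the expressed genes 30.8% were thus higher and 53.8% lower, beside 41.6% and 21.6% of all genes. Ccl2, a chemokine that draws macrophages, was 6.65-fold higher, at 2.69 and 17.9 RPKM. Tnc, a matrix protein, was lower, from 80.9 to 30.4 RPKM, Gfra1, a receptor for GDNF, from 23.1 to 10.1 RPKM, and Cdh2, the neural cadherin, from 62.8 to 42.1 RPKM. Ngfr, the p75 neurotrophin receptor of immature and repair cells, was at 291.9 and 274.0 RPKM. Among AP-1 targets known from other cells, 7 of 12 expressed genes were higher and 5 lower, or 5 and 6 after rescaling, beside 41.6% and 21.6% of all genes, or 22.7% and 33.8% after rescaling. Mmp2, a gelatinase, was lower, at 67.2 and 16.4 RPKM, whereas the stress enzyme Hmox1 was higher, at 23.8 and 57.2 RPKM, as was the urokinase receptor Plaur, at 6.29 and 10.5 RPKM. Vim, Timp1 and Mmp14, the most abundant of them, had ratios of 1.17, 1.07 and 0.938.

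The myelin genes that Jun opposes had 7 of 9 expressed members lower and 2 higher (8 and 1 after rescaling), with a median log2 difference of -0.51, beside 21.6% lower and 41.6% higher among all genes. Lower were Mal, from 44.1 to 18.4 RPKM, Mbp, which encodes myelin basic protein, from 50.7 to 29.6 RPKM, and Cnp, from 279.7 to 209.2 RPKM. Egr2, the factor that activates myelin genes, was the opposite, at 6.05 and 10.7 RPKM, and Pmp22 was at 1220 and 1290 RPKM.

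**Figure D5:**
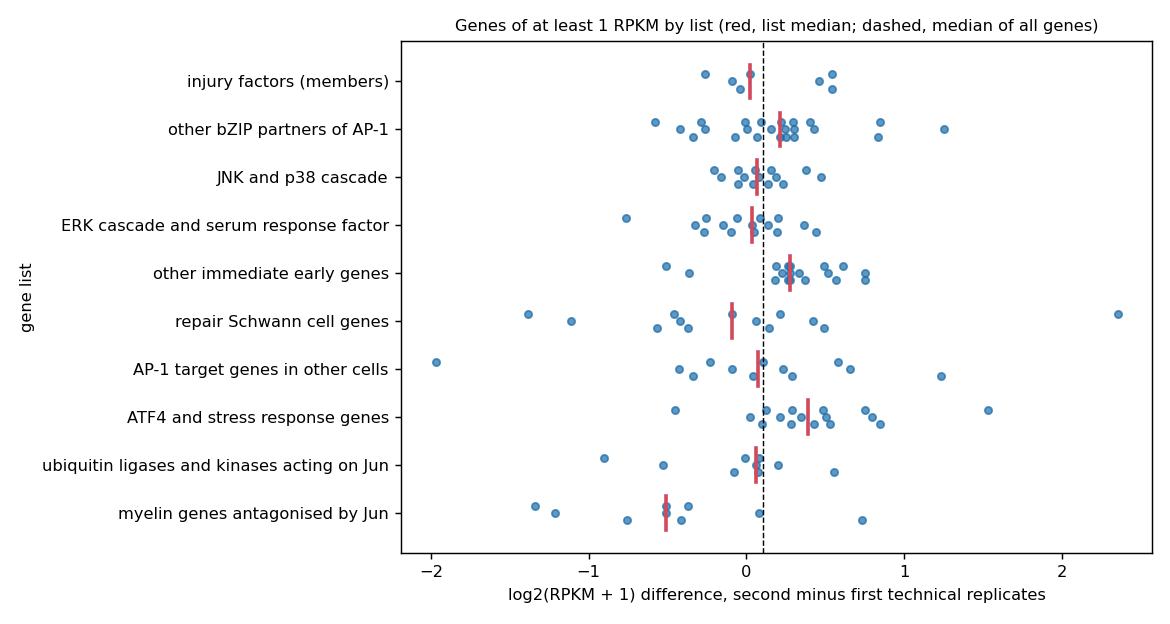
Difference in log2(RPKM + 1) between second and first technical replicates for the genes of at least 1 RPKM in 10 lists, 1 point per gene, with the median of each list in red and that of all genes, 0.10, as a dashed line. The median of the myelin genes lies at -0.51, that of the ATF4 and stress genes at 0.39, and that of the 7 AP-1 genes at 0.023.

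For each expressed AP-1 gene, the 2 genes with the most similar pattern over the 4 libraries were sought among genes within 2-fold of its mean, by the root mean square distance of the centred log2(RPKM + 1) values. Nearest to Jun were Sidt2, at a distance of 0.0029, and Sh3kbp1, at 0.0071. Junb was closest to Alkbh3 (0.010) and Pmm2 (0.011), Jund to Snrpel1 (0.0054) and Map2k2 (0.0093), and Fosl1 to Rrp9 (0.0070). For the other genes, these were Rtkn (0.0084) and Nt5dc3 (0.0089) for Fos, Hr (0.0050) and Srpk2 (0.0077) for Fosl2, and Plxna1 (0.0042) and Terf2ip (0.0079) for Atf3. Between 1572 and 4402 genes were searched for each, so that distances of this size were among many candidates, and the 4 libraries fall into 2 pairs.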

How the data were processed

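Poly(A) RNA-Seq was performed on 2 unmodified S16 populations with 2 libraries each. According to the methods and the labels, STAR aligned the reads to rn5, only unique alignments were kept, and HTSeq counted them per gene without strand, so reads of an antisense gene cannot be told apart. The authors deposited RPKM values per gene symbol. The deposited values are labelled RefSeq, whereas the methods name an Ensembl reference genome. The version of the gene models and the total of each library were not given in the sources used here. The totals recovered below are larger than the approximate number of reads per cell line in the methods.

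Whole reads, gene lengths and totals were recovered from the RPKM values by searching for the smallest integers that reproduce a gene across libraries, for all 18114 genes above 0 in at least 2 libraries. A common factor can remain hidden, as for Fosl2, whose recovered length of 672 bp is shorter than its coding sequence, so that its counting intervals are too wide. The recovery was tested on simulated data. Intervals are exact 95% Clopper-Pearson or conditional binomial intervals and cover counting error only. Differences were computed on the log2(RPKM + 1) scale, which understates changes of low genes, over genes whose mean reached 1 RPKM. A gene was called by counting intervals when the intervals of both ratios lay wholly on the same side of 1. No p-values were computed. Python 3.11.15, numpy 2.4.6, pandas 2.3.3, scipy 1.17.1 and matplotlib 3.10.9 were used.

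The members and lists were chosen with earlier results of these data known. Beside the members, the text names for each list the 3 most abundant genes and those at least 1.5-fold different in both pairs of numbered libraries, and for each expressed member the 2 genes nearest in pattern. A few genes that this rule names are not reported here. Genes that were chosen for their difference between numbers are described without a test. Alternatives were 2 scalings, a pseudocount of 0.1 RPKM, a minimum of 5 RPKM or none, each library left out and the replicate number as a block. The counting rule, its rescaled forms, ratios within a library and the length comparison were added after seeing the data.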

Additional observations from a re-analysis of the deposited data

Results flagged for a closer look

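Atf3 had 1 library apart from the other 3, technical replicate 1 of passage 39 at 19.3 RPKM, with a gap to the nearest library of 0.918 of the whole range. About 1 in 20 groups is picked out by chance, and 8 genes were examined. The 95% counting interval of this library, 18.2 to 20.4 RPKM, overlapped those of the others.

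Fos and Fosl2 moved in opposite directions in different pairs of libraries. From passage 9 to passage 39, the log2(RPKM + 1) difference of Fos was 0.028 in the first and -0.080 in the second technical replicates, and that of Fosl2 was 0.043 and -0.059. From the first to the second technical replicate, Fos differed by 0.014 at passage 9 and by -0.093 at passage 39. These differences between pairs were not tested, and the counting interval of each of these ratios included 1, although those of Fosl2 are too wide.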

How the results depend on the processing

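Of the 7 expressed genes, 0 differed 2-fold between passages or numbers, and 0 differed 1.5-fold between numbers, under the main and all other settings run. The number of all genes that differed 2-fold between passages, 1, was 4 with a common sum of 1000000, 0 with a minimum of 5 RPKM and from 9 to 26 with single libraries left out. With the replicate number as a block it was 1, the median passage difference of the members was -0.026, and no call changed. The samples share a number by label only, and same-numbered libraries were the more alike. Between numbers, 120 genes differed 2-fold, a count that became 325 after rescaling to a common sum and 251 when the pseudocount was 0.1 RPKM. The median passage difference of the members was from -0.049 to -0.0036 with single libraries left out. Their median difference between numbers, 0.023, was -0.12 with a common sum, -0.062 with median ratio scaling and -0.17 relative to genes of similar length, and from -0.0013 to 0.048 with single libraries left out. This median is the value of Atf3 under the main setting. A common sum moved the median of all genes from 0.10 to -0.032, and 3 members instead of 1 were then lower by counting intervals. Junb, Jund and Fosl1 remained higher and Jun lower under both scalings. Depth limits Fosb, with 30 to 49 reads per library, and Batf, with no reads.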
